A study of Bos taurus with 24 samples.

Results

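The genes described here encode the contractile machinery of smooth muscle cells and myofibroblasts and the factors that switch it on. They were chosen by name from a list of 33 genes, looked up in the day 4 table and joined by gene identifier to the day 7 table. Of these, 32 were found among the 27570 genes of the tables, and PDLIM7 was not listed under that name. They were measured by RNA-seq in cultured pre-adipocytes from subcutaneous adipose tissue of Holstein cows, induced to differentiate in medium with insulin and the PPARG agonist troglitazone, plus isobutylmethylxanthine and dexamethasone for the early phase. MIX cells received 300 µM fatty acid made of 60% palmitic acid and 40% oleic acid, OA cells 300 µM oleic acid, PA cells 300 µM palmitic acid, and CON cells the basal medium alone. Palmitic acid is a saturated and oleic acid a longer, monounsaturated fatty acid. Cells of cows 4 to 6 were treated during induction and collected at day 4. Cells of cows 1 to 3 were treated for 7 days, starting when the early phase had ended, and collected at day 7. Each of the 8 groups has 3 libraries, 1 per cow, and each cow gave 1 library to every treatment of its day. The age of the cows is not given in the labels.

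Contractile force comes from actin filaments, which slide past myosin II when myosin light chain kinase phosphorylates the regulatory light chain. Calponins, caldesmon, transgelin and tropomyosins decorate the thin filament, and alpha-actinin, filamin, zyxin and vinculin tie the filaments to each other and to adhesions. Most of these genes carry binding sites for serum response factor (SRF), whose partners are myocardin in smooth muscle and the actin-sensing MRTFs in fibroblasts. Stromal cells of adipose tissue make the same genes in culture when they spread on stiff plastic or see TGF-beta, and lose stress fibres as they become fat cells.

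Libraries held 13509548 to 17071654 counts at day 4 and 14118798 to 24008811 reads recovered from FPKM (fragments per kilobase of gene length, scaled by library depth) at day 7. With 3 counts taken as the floor, and counting error alone considered, a gene without a read may have reached 0.222 CPM in the shallowest day 4 library or 0.212 CPM in that of day 7. The labels call the cells adipocytes. The preadipocyte and fibroblast markers summed to 10268 to 27094 FPKM per library at day 4 and 17188 to 32088 at day 7. COL1A1, COL1A2, MMP2 and VIM were among the largest parts of these sums at both days. The progenitor markers DPP4, PI16 and CD34 of the same list averaged 0.0015, 0.0355 and 0.0197 FPKM at day 4. At day 7 these averaged 0.0206, 0.012 and 0.365 FPKM. The adipocyte markers summed to 58.1 to 151 FPKM at day 4 and lay at 50.4 to 116 FPKM at day 7, with ADIPOQ at 0 reads in every day 7 library. RBP4 and PNPLA2 made most of the day 7 sums, at means of 69.7 and 12.6 FPKM. FABP4 and PPARG averaged 30.3 and 3.07 FPKM at day 4, but 0.405 and 0.23 FPKM at day 7. LPL, CIDEC and PLIN1 averaged 0.464, 0.295 and 1.05 FPKM at day 7. The tables of day 4 and day 7 were normalised separately and hold different cows, so levels were not tested between days.

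Among the actins, ACTA2 (alpha smooth muscle actin, the classical myofibroblast marker; chromosome 26, 10626803 to 10679430, minus strand) spanned 22.8 to 304 FPKM over the 12 libraries of day 4, with a median of 124. Its day 7 libraries lay between 343 and 2009 FPKM, around a median of 1245. ACTG2 (gamma smooth muscle actin of visceral muscle; chromosome 11, 10736902 to 10761462, minus strand) spanned 13.6 to 512 FPKM at day 4 and lay at 25.9 to 1370 FPKM at day 7. Coordinates are those of the deposited tables, and the genome build is not given in the sources used here. The coding sequences of the 2 actins are nearly alike, so reads of one could have been counted for the other. Their ratio differed between cows. ACTA2 stood at a median of 1.70, 8.05 and 0.609 times the ACTG2 level in cows 4, 5 and 6, and at 13.1, 3.45 and 0.940 times in cows 1, 2 and 3. Within a cow the 4 libraries stayed much closer, between 6.74 and 8.46 in cow 5, between 0.936 and 0.971 in cow 3 and between 2.55 and 3.69 in cow 2.

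TAGLN (transgelin, an early smooth muscle marker; chromosome 15, 27888817 to 27894507, plus strand) was among the most abundant of the set. It spanned 252 to 1724 FPKM at day 4 and lay at 1117 to 2971 FPKM at day 7. CALD1 (caldesmon), TPM1 and TPM4 (tropomyosins) were likewise abundant. CALD1 spanned 368 to 947 FPKM at day 4 and TPM4 641 to 1132. CNN1, the calponin of differentiated smooth muscle, spanned 18.6 to 200.3 FPKM at day 4 and lay at 122 to 303 FPKM at day 7. Its relatives CNN2 and CNN3, made more widely, spanned 50.8 to 133 and 80.1 to 117 FPKM at day 4. LMOD1 (leiomodin, which nucleates thin filaments in smooth muscle) was much lower. It spanned 2.01 to 21.4 FPKM at day 4 and lay at 17.1 to 57.2 FPKM at day 7.

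The motor side of the apparatus was uneven. MYL9, the regulatory light chain, spanned 75.5 to 434 FPKM at day 4 and lay at 417 to 836 FPKM at day 7. MYLK, its kinase, spanned 0.234 to 5.995 FPKM at day 4 and lay at 15.01 to 26.1 FPKM at day 7. MYH11, the smooth muscle myosin heavy chain and the most specific marker of mature smooth muscle, stayed between 0.214 and 1.19 FPKM at day 4 and between 0.413 and 0.711 at day 7. In the MIX libraries of cows 4, 5 and 6 it had 1.19, 0.697 and 0.214 FPKM, in OA 0.752, 0.917 and 0.268, in PA 0.765, 0.612 and 0.347, and in CON 1.11, 0.828 and 0.299. In cows 1, 2 and 3 it had 0.508, 0.711 and 0.538 FPKM in MIX, 0.482, 0.519 and 0.452 in OA, 0.677, 0.463 and 0.611 in PA, and 0.701, 0.462 and 0.413 in CON. At day 4 MYH11 was thus lowest in cow 6, the animal with the most ACTA2 and TAGLN, and its treatment groups overlapped. DES (desmin, the muscle intermediate filament) had at most 3.84 FPKM at day 4 and 0.661 at day 7.

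The linkers of stress fibres and adhesions were broadly present. FLNA (filamin A) spanned 170 to 529 FPKM at day 4, ZYX (zyxin) 105 to 416, ACTN1 (alpha-actinin) 105 to 321, PALLD (palladin) 153 to 426 and VCL (vinculin) 114 to 188. LPP, SMTN (smoothelin) and SYNPO2 lay between 2.15 and 31.7 FPKM at day 4. XIRP1 (an actin-binding Xin repeat protein known from striated muscle; chromosome 22, 12509227 to 12518446, minus strand) spanned 0.316 to 17.9 FPKM at day 4 and at most 0.365 at day 7. ITGA8, the integrin alpha 8 chain, spanned 0.290 to 2.11 FPKM at day 4 and lay at 3.57 to 23.1 FPKM at day 7. PDLIM3 had 2 reads in all 24 libraries together.

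Of the transcription factors, SRF spanned 14.2 to 40.9 FPKM at day 4 and lay at 13.9 to 25.3 FPKM at day 7. MYOCD, encoding myocardin, was low, with 1 to 108 reads a library. In cows 4, 5 and 6 it had 0.293, 1.83 and 0.443 FPKM in MIX, 0.179, 2.01 and 0.428 in OA, 0.0184, 1.10 and 0.706 in PA, and 0.190, 1.27 and 0.613 in CON. In cows 1, 2 and 3 it had 1.02, 0.249 and 0.354 FPKM in MIX, 0.994, 0.485 and 0.403 in OA, 1.46, 0.343 and 0.351 in PA, and 1.27, 0.471 and 0.473 in CON. MYOCD was highest in cow 5 at day 4 and in cow 1 at day 7, which are not the cows with the most ACTG2. SRF was highest in cow 6 at day 4 and in cow 3 at day 7, at means of 36.7 and 24.6 FPKM, and these cows had the most ACTG2. The LIM proteins CSRP1, CSRP2, TGFB1I1 (Hic-5) and FHL2, partners of SRF or of focal adhesions, reached 644, 51.1, 47.5 and 212 FPKM at day 4.

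**Figure D1:**
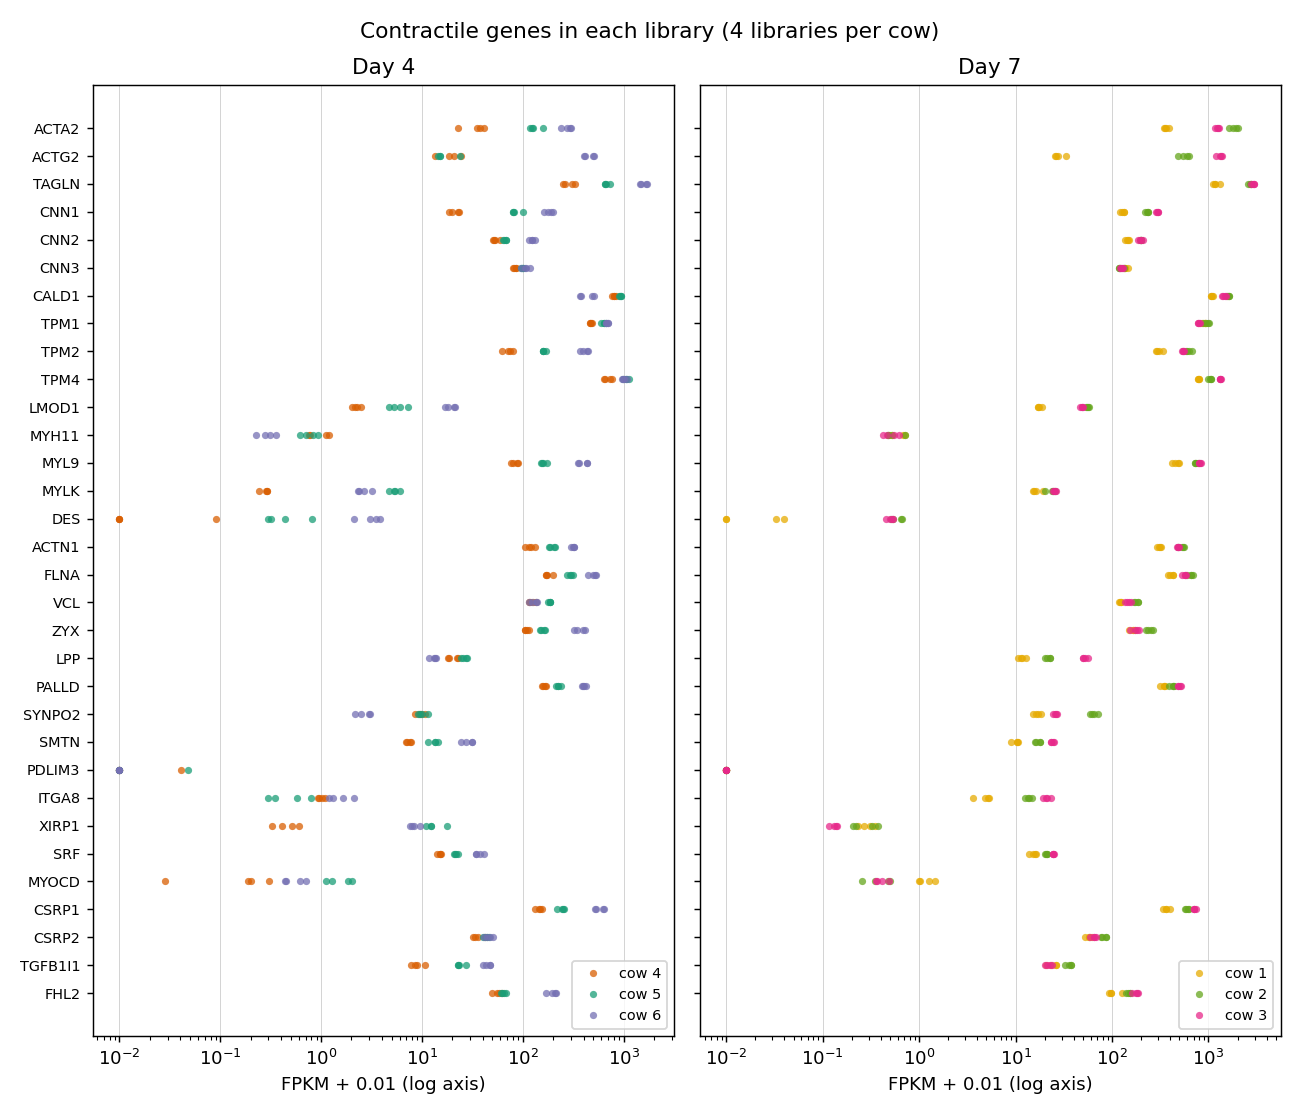
Level of each of the 32 contractile genes in every library, in FPKM with 0.01 added, on a log axis; each point is a library, colours mark cows, and each cow has 4 points (MIX, OA, PA and CON) per gene. Points cluster by cow: ACTG2 of cow 6 lies at 402 to 512 FPKM, apart from 13.6 to 24.3 in cows 4 and 5.

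The contractile genes varied far more between cows than between treatments. Of the 29 genes with a mean of at least 1 FPKM at day 4, 22 were highest in cow 6, 7 in cow 5 and 0 in cow 4, and 24 were lowest in cow 4. Over all 12198 genes of that level, 42.3% were highest in cow 6, 25.5% in cow 5 and 32.2% in cow 4, and 32.65% were lowest in cow 4. The order cow 6, cow 5, cow 4 held for 20 contractile genes, among them ACTA2, TAGLN, CNN1, MYL9, FLNA and SRF. CALD1, LPP and SYNPO2 had the order cow 5, cow 4, cow 6, with the libraries of cows 5 and 4 overlapping for SYNPO2. For 19 genes all 4 libraries of cow 6 lay above the 8 libraries of the other cows, whatever the treatment, beside 28.3% of all genes. For 21 genes all 4 libraries of cow 4 lay below the rest, beside 16.6% of all genes. The share of the sum of squares of log2(FPKM + 1) lying between cows had a median of 98.1% over the contractile genes at day 4, beside 87.9% over all genes. The share between treatments had a median of 1.00%, beside 3.01% over all genes. These values are descriptions, since cows were not compared by design.

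The animals of day 7 differed in the same manner. Of 27 contractile genes with at least 1 FPKM, 24 were lowest in cow 1, beside 33.4% of all genes, and for 22 all 4 libraries of cow 1 lay below the rest, beside 14.6% of all genes. The highest level fell to cow 2 for 13 genes, to cow 3 for 13 and to cow 1 for CNN3 alone, beside 31.6, 32.1 and 36.3% of all genes. The median share between cows was 97.0%, beside 78.3% over all genes. ACTG2 spread the most at this day, with a mean of 1308 FPKM in cow 3 against 28.5 in cow 1, a ratio of 45.9. The median ratio of the highest to the lowest cow was 3.49 over the contractile genes at day 4 and 1.70 at day 7, beside 1.69 and 1.38 over all genes.

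The contractile genes together took 1.39 to 1.5% of all reads in cow 4, 1.75 to 1.81% in cow 5 and 2.35 to 2.47% in cow 6. At day 7 they took 2.49 to 2.54% in cow 1, 3.56 to 3.78% in cow 2 and 3.64 to 3.76% in cow 3. The ranges of the 3 cows of day 4 do not overlap, and neither does that of cow 1 with cows 2 and 3. In bulk RNA, fewer cells of a type and less RNA per cell cannot be told apart.

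**Figure D2:**
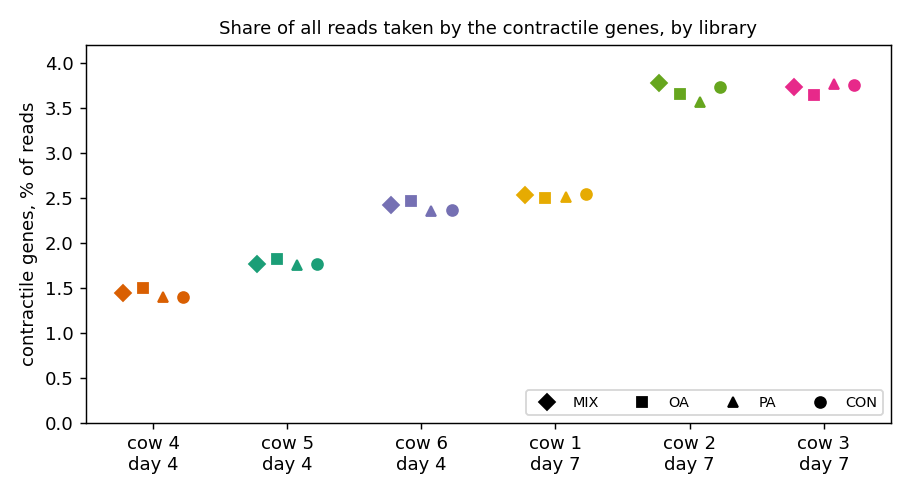
Percent of all reads assigned to the 32 contractile genes, by library; colours mark cows and shapes mark the treatments MIX, OA, PA and CON. The 4 treatments of a cow lie close together, such as 2.35 to 2.47% in cow 6, while cow 4 lies at 1.39 to 1.5%.

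Ratios within gene families followed the animals as well. The smooth muscle calponin CNN1 stood at a median of 0.255, 0.822 and 1.73 times the level of CNN3 in cows 4, 5 and 6. At day 7 the ratio was 0.933, 1.88 and 2.34 in cows 1, 2 and 3. TPM2, the beta tropomyosin, stood at 0.156, 0.255 and 0.598 times TPM1 in cows 4, 5 and 6, and at 0.334, 0.649 and 0.682 times in cows 1, 2 and 3. Set against TPM4, TPM2 stood at 0.103, 0.151 and 0.3998 times its level in cows 4, 5 and 6. At day 7 that ratio was 0.384, 0.592 and 0.411 in cows 1, 2 and 3, and the libraries of cows 1 and 3 overlapped, so it did not follow the order of the other pairs.

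Markers of other cells also differed between cows. The 7 pericyte markers, cells of small vessels that share contractile genes, summed to 41.6 to 48.9 FPKM in cow 4, 115 to 135 in cow 5 and 123 to 141 in cow 6. At day 7 they ran opposite to the contractile genes, at 126 to 135 FPKM in cow 1, 75.7 to 87.7 in cow 2 and 34.8 to 39.4 in cow 3. PDGFRB, a receptor that fibroblasts make too, carried most of these sums, at means of 35.8, 119 and 122 FPKM in cows 4, 5 and 6 and 121, 67.3 and 32.7 in cows 1, 2 and 3. KCNJ8 and ABCC9 were highest in cow 4 at day 4, and CSPG4 and NOTCH3 in cow 2 at day 7. RGS5, a defining pericyte gene, averaged at most 0.031 FPKM in a cow at day 4 and had 0 reads at day 7. The 14 preadipocyte and fibroblast markers summed to 10268 to 11697 FPKM in cow 4, against 24976 to 27094 in cow 5 and 23938 to 25112 in cow 6. The summed adipocyte markers, 9 of 10 genes found, were highest in cow 6 at day 4, at 131 to 151 FPKM, mostly RBP4 and FABP4. CIDEC and PNPLA2 were highest in cow 6 too. PPARG was instead highest in cow 4 and PLIN1 in cow 5, while LPL was nearly level in cows 4 and 6 (0.954 and 0.941 FPKM). The 9 skeletal muscle markers summed to at most 1.10 FPKM, and MYOD1, MYOG, MYH2 and PAX7 had 0 reads in all libraries. Macrophage and leukocyte markers summed to at most 26.5 FPKM, mostly CD14 and CD68, and epithelial and mesothelial markers to at most 14.4 FPKM. The 7 genes of mature smooth muscle, all contractile genes themselves, summed to 38.0 to 44.0, 109 to 134 and 215 to 259 FPKM in cows 4, 5 and 6. The part of these cell types in the differences between cows was not tested.

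At day 4, the question was whether fatty acids given during induction altered the contractile genes. ACTG2 was the contractile gene with the clearest difference between OA and CON. It had 24.3, 23.7 and 512 FPKM in the OA libraries of cows 4, 5 and 6, against 13.6, 14.5 and 402 FPKM in the CON libraries. OA was higher in each cow, while the groups overlapped widely because cow 6 lay far above cows 4 and 5. The group means were 187 ± 282 FPKM in OA and 143 ± 224 FPKM in CON (SD, n = 3 each). With group means alone, edgeR's quasi-likelihood test called 0 of 13580 genes in OA against CON, with 24 at an unadjusted p below 0.05, none of them contractile genes. That fit leaves the differences between cows in its error. So few of all genes came below 0.05 that the absence of contractile genes says little. With cow as a block, since each animal gave a library to every treatment, edgeR called 10 genes, 0.0736% of those tested. All 10 were higher in OA, and ACTG2 was among them. The log2 difference was 0.59 ± 0.09 (SE), with a 95% interval of 0.40 to 0.78 and an adjusted p of 0.00715 from edgeR with the block.

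ACTA2 had the next smallest p in this comparison. It had 41.5, 160.1 and 293 FPKM in OA of cows 4, 5 and 6, against 22.8, 122 and 241 FPKM in CON. OA was the higher in each cow, by 0.84, 0.39 and 0.28 on the log2(FPKM + 1) scale. The log2 difference with the block was 0.48 ± 0.10, at an adjusted p of 0.0620 from edgeR, so ACTA2 was not called. With the block, 7 of 15 alternatives called it, among them DESeq2, its size factors, no filter on low counts and only the compared groups. The other 8 did not, among them limma on log2(FPKM + 1), at an adjusted p of 0.466. In edgeR it was not called with at least 50 counts required (adjusted p 0.0863), without cow 4 (0.999) or without cow 5 (0.215). XIRP1 followed at 0.45 ± 0.10, with an adjusted p of 0.132. TAGLN had 330.1, 740 and 1671 FPKM in OA of cows 4, 5 and 6, against 265, 654 and 1501 FPKM in CON, a difference of 0.21 ± 0.07 at an adjusted p of 0.499. CNN1 had 23.5, 100.2 and 189 FPKM in OA, against 18.6, 79.9 and 177 FPKM in CON, a difference of 0.24 ± 0.08 at an adjusted p of 0.589. For both genes every cow had more in OA, by less than the distance between any 2 cows.

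Over the set, 26 of 31 contractile genes tested had a positive difference between OA and CON, with a median of 0.12 on the log2 scale, beside 50.1% of all genes and a median of 0.0005 (group means alone). Of the 29 with at least 1 FPKM, 15 had more FPKM in OA in all 3 cows, and 0 had less in all 3. Over all genes of that level, 15.2% had more in all 3 cows and 11.4% less. The 15 were ACTA2, ACTG2, TAGLN, CNN1, TPM2, LMOD1, MYL9, ACTN1, FLNA, ZYX, SMTN, XIRP1, CSRP1, TGFB1I1 and FHL2. With the block 4 of the 31 had a negative difference, namely MYH11 at -0.21 ± 0.24, CALD1 at -0.15 ± 0.08, CSRP2 at -0.13 ± 0.10 and SYNPO2 at -0.07 ± 0.11. Genes of 1 library are not independent of each other.

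OA against PA compared the monounsaturated with the saturated acid at the same dose. XIRP1 and ACTG2 were higher in OA. XIRP1 had 0.596, 17.9 and 9.62 FPKM in the OA libraries of cows 4, 5 and 6, against 0.396, 11.01 and 7.53 FPKM in the PA libraries. Every cow had more in OA, and the groups overlapped because cow 4 had little of the transcript, at 62 reads in OA and 40 in PA. The log2 difference was 0.55 ± 0.10, with a 95% interval of 0.33 to 0.76 and an adjusted p of 0.0202 (edgeR with the block). ACTG2 had 24.3, 23.7 and 512 FPKM in OA, against 18.5, 15.1 and 418 FPKM in PA, and again every cow had more in OA. Its difference was 0.43 ± 0.09, with an interval of 0.24 to 0.62 and an adjusted p of 0.0466 (edgeR with the block). These were 2 of the 30 genes called with the block, 0.221% of those tested, of which 17 were higher in OA and 13 lower. Without the block 0 genes were called and 23 had an unadjusted p below 0.05. No contractile gene was among them, but 23 are again too few of all genes for that to say much.

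Among the other genes, TGFB1I1 differed by 0.29 ± 0.08 between OA and PA (adjusted p 0.166) and TAGLN by 0.24 ± 0.07 (adjusted p 0.174), both from edgeR with the block. For ACTA2 the difference was 0.20 ± 0.10 with a 95% interval of 0.00497 to 0.40, and it did not pass. In all 3 cows 16 of 29 genes had more FPKM in OA, beside 12.9% of all genes. CALD1, SYNPO2 and CSRP2 had less in all 3, beside the same 12.9% of all genes. This comparison uses the same OA libraries as OA against CON, so the counts of the 2 are not independent.

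All 3 calls of contractile genes were lost when cow 4 or cow 5 was left out. ACTG2 in OA against CON then differed by 0.50 without cow 4 and 0.55 without cow 5, at adjusted p of 0.422 and 0.128, and was called without cow 6, at 0.76 and an adjusted p of 1.94e-05 (edgeR with the block). It was also not called without the OA library of cow 4 or cow 5, or without the CON library of cow 4, at adjusted p of 0.0966, 0.0619 and 0.152. XIRP1 in OA against PA was lost without cow 4 (0.54, adjusted p 0.0793), without cow 5 (0.41, adjusted p 0.998), or without the OA or PA library of either. ACTG2 in OA against PA differed by 0.45 without cow 4 and 0.34 without cow 5, at adjusted p of 0.224 and 0.856, and was also lost without any single library of those groups other than that of cow 6 in OA, at adjusted p up to 0.478, and with at least 50 counts required, at 0.0507. Limma on log2(FPKM + 1) with the block made none of these 3 calls, at adjusted p of 0.313 to 0.379.

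PA and MIX gave no call at day 4, with or without the block. Over PA against CON, MIX against CON, MIX against PA and MIX against OA, 0 of 13580 genes passed, so that 0% was called, and 15 to 20 genes had an unadjusted p below 0.05 without the block. In PA against CON, ACTA2 had a difference of 0.27 ± 0.10 with the block (adjusted p 0.9998 from edgeR), higher in 3 of 3 cows. ACTA2 had 37.3, 126 and 271 FPKM in PA of cows 4, 5 and 6, against the 22.8, 122 and 241 FPKM of CON. TAGLN had 252, 672 and 1455 FPKM in PA and CNN1 20.03, 81.1 and 163 FPKM, each below CON in at least 1 cow. The contractile genes were split there, 16 with a positive and 15 with a negative difference. In all 3 cows 7 genes had more in PA and 1, FHL2, had less, beside 12.7 and 10% of all genes. In the MIX libraries of cows 4, 5 and 6, ACTG2 had 20.6, 15.2 and 493 FPKM, ACTA2 had 35.05, 118 and 304 FPKM, and XIRP1 had 0.501, 12.2 and 8.29 FPKM, against 0.316, 12.2 and 8.01 FPKM for XIRP1 in CON. TAGLN had 305, 649 and 1724 FPKM in MIX and CNN1 22.8, 79.98 and 200.3 FPKM. In MIX against CON, 24 of 31 were positive, with the share of all genes not given beside them. ACTG2 had a difference of 0.32 ± 0.09 in MIX against CON (adjusted p 0.994 from edgeR with the block). In all 3 cows 7 genes had more in MIX than in CON and 0 had less, beside 13.5 and 9.17% of all genes. Set against OA, MIX had less of 9 genes in all 3 cows, XIRP1, ACTG2, LMOD1 and FLNA among them, beside 13.2% of all genes.

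**Figure D3:**
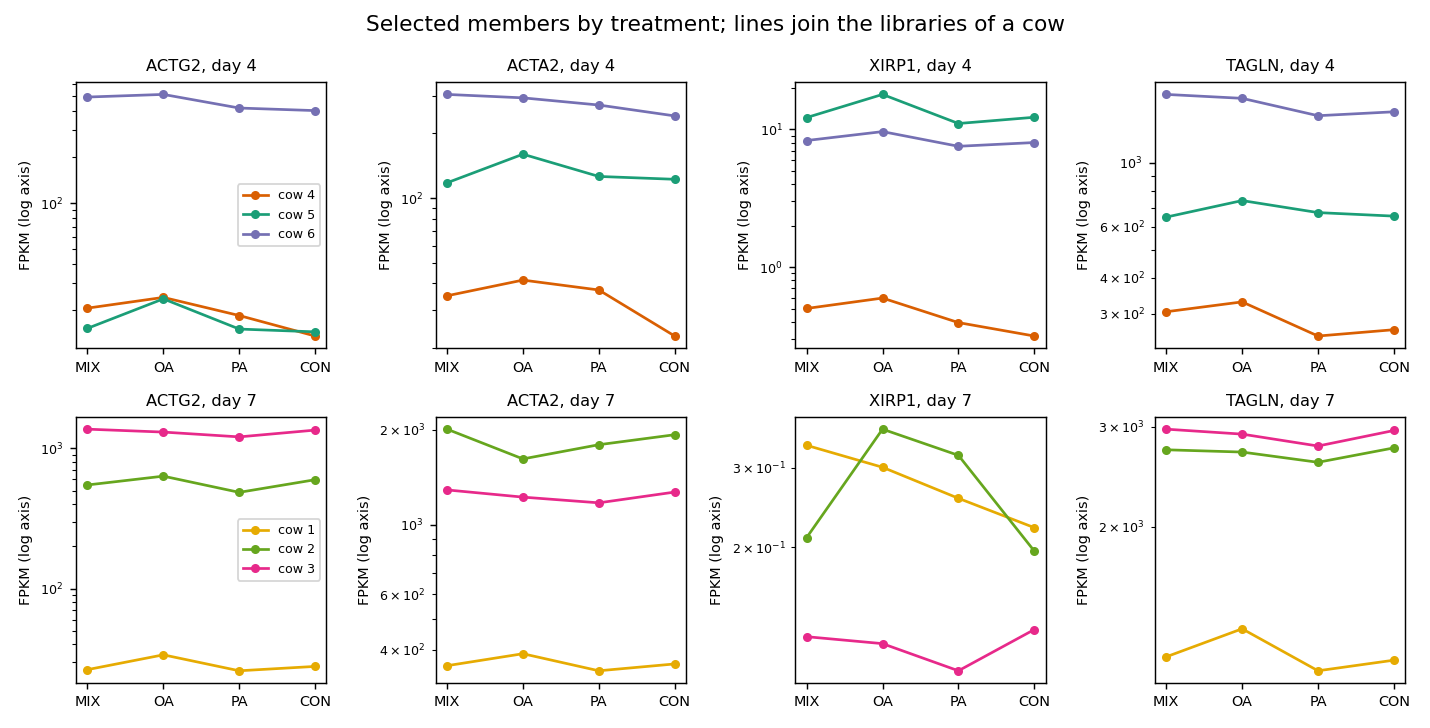
FPKM of ACTG2, ACTA2, XIRP1 and TAGLN in the MIX, OA, PA and CON libraries of day 4 (top) and day 7 (bottom), on log axes; lines join the libraries of a cow. At day 4 OA lies above CON in every cow for the 4 genes, for example 24.3 against 13.6 FPKM for ACTG2 in cow 4, while the lines of the cows lie far apart.

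At day 7, with the fatty acids given after induction, limma on log2(FPKM + 1) called 0 of 12615 genes, or 0%, in every comparison, with and without cow as a block. Without the block 48 to 87 of the 12615 genes had an unadjusted p below 0.05, none of them contractile genes. With so few over all genes, that absence says little of the contractile genes. ACTG2 had 33.7, 633 and 1306 FPKM in OA of cows 1, 2 and 3, against 27.9, 597 and 1349 FPKM in CON. Cow 3 thus had less in OA, and the difference was 0.10 ± 0.07 with a 95% interval of -0.06 to 0.27. ACTA2 had 389, 1616 and 1222 FPKM in OA, against 361, 1929 and 1268 FPKM in CON, with 1 cow higher and 2 lower and an interval of -0.24 to 0.10. TAGLN had 1324, 2708 and 2912 FPKM in OA, against 1166, 2754 and 2955 FPKM in CON, and CNN1 134.5, 234 and 298 FPKM, against 134, 237 and 284 FPKM. Neither had the same sign in all 3 cows. XIRP1 was too low to be tested at day 7, at 13 to 49 reads a library. It had 0.336, 0.21 and 0.127 FPKM in MIX of cows 1, 2 and 3, 0.3004, 0.365 and 0.122 FPKM in OA, 0.257, 0.319 and 0.107 FPKM in PA, and 0.221, 0.196 and 0.132 FPKM in CON.

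PA against CON had the most uniform sign at this day: 26 of 28 contractile genes tested had a negative difference, with a median of -0.05, beside -0.01 over all genes. The share of all genes with a negative difference is not given beside this count. Of the 27 with at least 1 FPKM, 12 had less in PA in all 3 cows and 0 had more, beside 14.7 and 11.6% of all genes. ACTG2 had 25.9, 486 and 1207 FPKM in PA of cows 1, 2 and 3, against 27.9, 597 and 1349 FPKM in CON, a difference of -0.19 ± 0.07. TAGLN had 1117, 2598 and 2775 FPKM in PA and CNN1 122, 219 and 303 FPKM, TAGLN below CON in 3 cows and CNN1 in cows 1 and 2. ZYX, which sits at focal adhesions, had 150.4, 234 and 172 FPKM in PA, against 175, 263 and 182 FPKM in CON, a difference of -0.16 ± 0.06. The lowest adjusted p of a contractile gene in this comparison was 0.998 with the block (limma), so none passed. The library totals differed here too, at 14118798 to 19859107 reads in PA and 19358115 to 24008811 in CON, and their part was not tested.

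Between OA and PA at day 7, 20 of 28 genes had a positive difference, with the share of all genes not given beside them. ACTG2 had 33.7, 633 and 1306 FPKM in OA, against 25.9, 486 and 1207 FPKM in PA, more in every cow. The difference was 0.29 ± 0.07 with an interval of 0.12 to 0.45, at an adjusted p of 0.306 (limma with the block), and did not pass. In all 3 cows 8 genes had more in OA and 1, CALD1, had less, beside 16.7 and 12.7% of all genes. In the MIX libraries of cows 1, 2 and 3, ACTG2 had 26.4, 548 and 1370 FPKM, ACTA2 356, 2009 and 1288 FPKM, TAGLN 1182, 2733 and 2971 FPKM, and CNN1 127, 229 and 295 FPKM. ACTA2 had 343, 1793 and 1172 FPKM in PA of the same cows. MIX against PA had 8 genes with more in all 3 cows and 0 with less, beside 14.8 and 12.2%. OA against CON had 4 and 5, beside 17.2 and 14.7%, and MIX against CON 4 and 3, beside 12.1 and 12.6%.

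**Figure D4:**
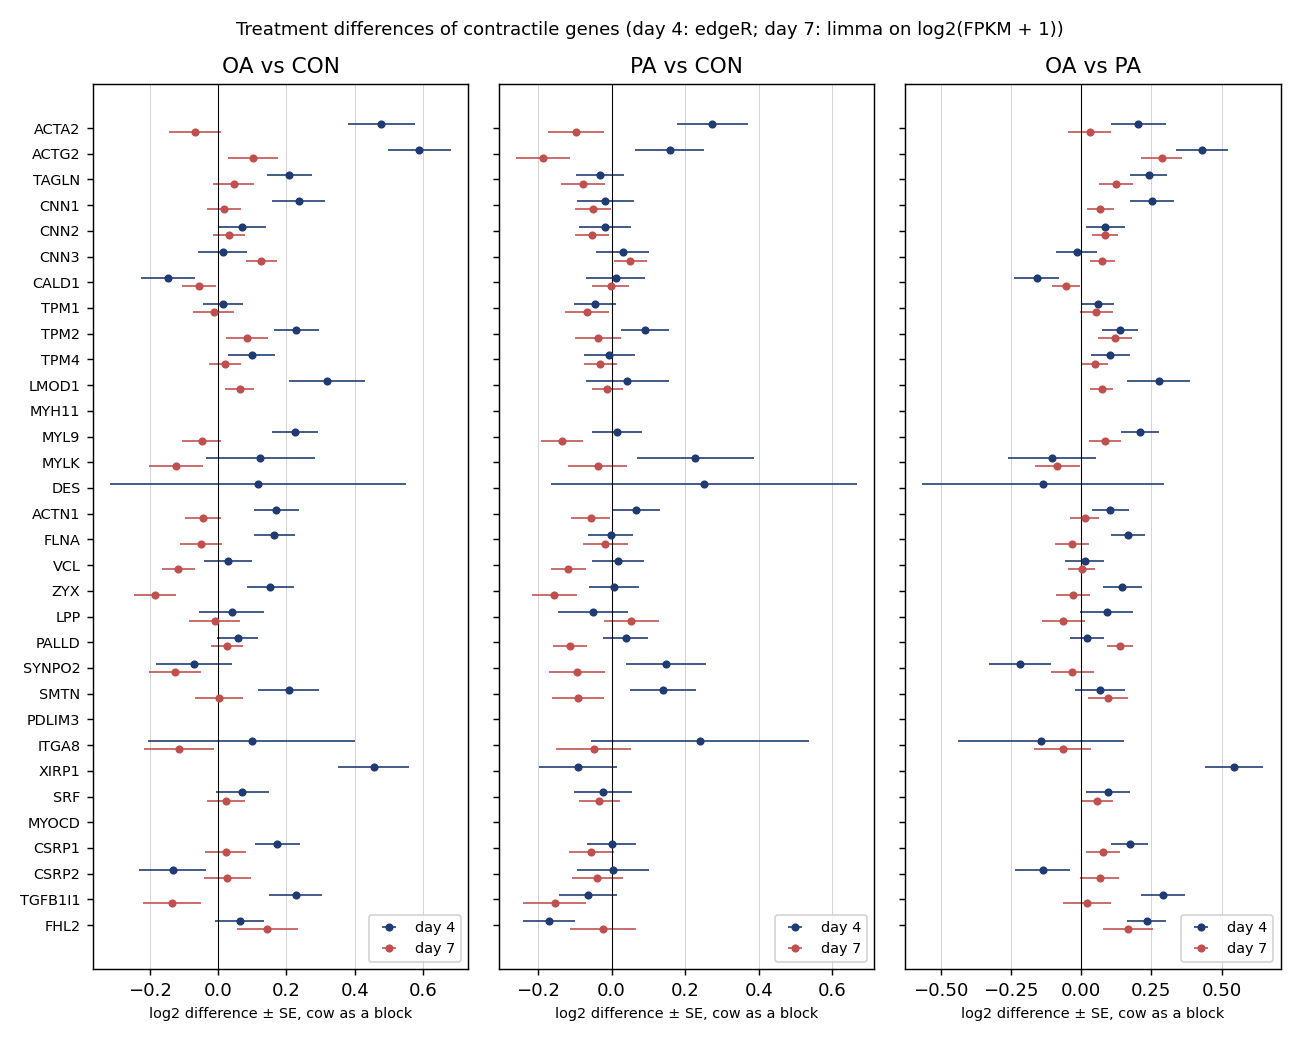
Log2 difference with its standard error for each contractile gene with a mean of at least 1 FPKM at that day, from the fits with cow as a block, for OA against CON, PA against CON and OA against PA; blue is day 4 (edgeR) and red is day 7 (limma). For OA against CON the day 4 points lie mostly right of 0, ACTG2 at 0.59, while those of day 7 straddle 0, ZYX at -0.18.

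The difference of the OA effect between the days was tested directly on log2(FPKM + 1). Limma called 0 of 13413 genes, 0%, for each of the 4 contrasts tested, with and without the block. For OA against CON the contractile genes with the smallest p were ACTG2, at -0.51 ± 0.14 (day 7 minus day 4), ACTA2, at -0.57 ± 0.16, and ZYX, at -0.35 ± 0.10, each at an adjusted p of 0.769 (limma with the block). ZYX had 115, 168 and 392 FPKM in OA of cows 4, 5 and 6, against 105, 149 and 344 FPKM in CON, more in every cow. At day 7 it had 165, 226 and 152 FPKM in OA of cows 1, 2 and 3, against 175, 263 and 182 FPKM in CON, less in every cow. Day, cows and the timing of treatment differ together here and cannot be told apart.

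Genes around the contractile apparatus were described from 6 lists. The signs of all genes in the fits with the block are not given beside them. The sign counts therefore describe the lists alone and do not set them apart from other genes. None of their members passed in OA against CON or OA against PA at day 4, or in PA against CON at day 7, with or without the block. Of the 14 genes of non-muscle actomyosin, which builds stress fibres in all cells, 14 had a positive and 0 a negative difference between OA and CON at day 4 (median 0.12, with the block). Among them were the cytoplasmic actins ACTB (0.16 ± 0.06, adjusted p 0.761) and ACTG1 (0.15 ± 0.06, adjusted p 0.866) and talin, TLN1 (0.15 ± 0.06, adjusted p 0.911), from edgeR with the block. At day 7 the same list had 12 of 14 negative differences between PA and CON, with ACTN4 at -0.13 ± 0.04 and ACTB at -0.16 ± 0.07.

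Among regulators and their targets, more genes had a negative than a positive difference between OA and CON at day 4, and none passed. Of the 8 MRTF, YAP and TEAD genes, which read actin state and tension, 2 had a positive and 6 a negative difference between OA and CON at day 4, with a median of -0.09. MRTFB had -0.20 ± 0.10 and TEAD4 -0.25 ± 0.15. Of 10 target genes of these factors, 3 were positive and 7 negative, with ANKRD1 at -0.48 ± 0.17 and an adjusted p of 0.707 (edgeR with the block). Between OA and PA, 5 targets were positive and 5 negative, with CCN2 at 0.21 ± 0.06 (adjusted p 0.268, edgeR with the block).

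For TGF-beta input, the classical trigger of the myofibroblast state, 5 of 12 genes were positive and 7 negative in OA against CON. TGFB3, a ligand, had -0.27 ± 0.12, TGFBR1, a receptor, -0.30 ± 0.14, and SKIL, an inhibitor of SMAD signalling, -0.23 ± 0.12. In OA against PA, LTBP2, a matrix protein related to the binders of latent TGF-beta, had 0.34 ± 0.08 at an adjusted p of 0.0631 (edgeR with the block), short of the threshold. Of the 9 contraction control genes tested, among them subunits of myosin phosphatase, 4 were positive and 5 negative in OA against CON, with ROCK2 at -0.15 ± 0.12. Of 11 other muscle genes tested, 9 were positive and 2 negative, with the small heat shock gene HSPB6 at 0.21 ± 0.07 (adjusted p 0.710, edgeR with the block).

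The cow pattern of these lists was mixed. At day 4, 10 of 14 non-muscle actomyosin genes were highest in cow 6 and 13 lowest in cow 4. So were 6 of 7 other muscle genes at both ends, beside 42.28% of all genes highest in cow 6 and 32.65% lowest in cow 4. In contrast, 10 of 12 TGF-beta genes and 6 of 8 contraction control genes were lowest in cow 6, beside 41.56% of all genes. In that cow 22 of 29 contractile genes were highest.

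Cell type markers were also set beside the day 4 differences of OA and CON. Summed adipocyte markers were 72.6, 64.1 and 143 FPKM in OA of cows 4, 5 and 6, against 62.2, 58.1 and 131 FPKM in CON. Pericyte markers were 48.9, 134 and 141 FPKM in OA, against 41.6, 115 and 133 FPKM in CON. Preadipocyte and fibroblast markers were 11681, 27094 and 24580 FPKM in OA, against 10268, 24976 and 23938 FPKM in CON. Macrophage and leukocyte markers were 10.5, 14.6 and 11.5 FPKM in OA, against 10.1, 11.3 and 10.8 FPKM in CON. CD14 and CD68 made most of these last sums, at day 4 means of 6.02 and 4.48 FPKM. PTPRC, ITGAM and LYZ of the same list averaged 0.00138, 0.00501 and 0.00745 FPKM. All 4 sums were higher in OA in every cow, as ACTG2 was, and their part in its difference was not tested. The adipocyte sums were also above CON in every cow in PA (65.2, 62.2 and 137 FPKM) and MIX (66.6, 62.6 and 151 FPKM). So were the preadipocyte and fibroblast sums. Endothelial, epithelial and mesothelial, and skeletal muscle sums had mixed signs. In cow 4 they were lower in OA (1.03, 3.01 and 1.05 FPKM) than in CON (1.17, 4.49 and 1.08 FPKM), and each was higher in another cow. The endothelial markers summed to at most 2.45 FPKM, with CDH5, TIE1 and CLDN5 at 0 reads in every library of day 4.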

How the data were processed

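RNA of 24 libraries was analysed (8 groups, 3 cows each). The deposited day 4 table holds raw counts per gene, which are whole numbers. The authors also gave FPKM for both days, and day 7 has FPKM alone. Fold changes (log2), p-values and adjusted p-values of the authors' own tests accompany the day 4 counts. None of the genes had an adjusted p below 0.05 there in any of the 6 comparisons of the authors' deposited table. The tools listed, per the submitters' processing notes, are featureCounts 1.5.0-p3, StringTie 1.3.3b and FastQC 0.11. Which aligner, build and strand setting applied is not given in the sources used here, and the library protocol covers directional and non-directional kits, so overlapping and antisense genes may share reads. Reads of day 7 were recovered from FPKM and gene length (100% whole within 0.01) and used only in an alternative test, in which edgeR with the block called 8 genes for OA against PA, 2 for MIX against OA and 0 in the other comparisons.

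Day 4 counts were filtered with filterByExpr, scaled by TMM and tested with edgeR 4.0.16 (quasi-likelihood, 4 group means, 13580 genes, of which 31 are contractile genes). Day 7 FPKM of genes with at least 1 FPKM in at least 3 libraries (12615 genes, 28 of them contractile) were tested with limma 3.58.1 with trend on log2(FPKM + 1), which understates changes of low genes. A passing gene had a two-sided Benjamini-Hochberg adjusted p below 0.05 over all genes tested. Differences are the group named before "against" minus the other. Log2 differences of single genes, their SE and intervals are from the fit with cow as a block unless stated. For edgeR the SE was derived from the test, as the absolute log2 difference over the square root of the quasi-likelihood F. The edgeR intervals were built from that SE. Per the labels, a cow number stands for 1 animal across the treatments of its day. This pairing was checked: deviations from group means correlated across genes at r = 0.757 to 0.912 (day 4) and 0.772 to 0.865 (day 7) within a cow. Between cows r was at most 0.037 and -0.310. The deviations of a group cancel out, so the values between cows follow from those within a cow and are no separate check. Alternatives were DESeq2 1.42.0, its size factors, other filters and pseudocounts, fits on only the compared groups, and fits without single cows or libraries. R 4.3.3 and Python 3.11.15 were used.

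Members and lists were chosen with earlier results of these data known. All members found are accounted for, with values in every library for called members, ACTA2, ACTG2, TAGLN, CNN1, MYH11 and MYOCD. Other genes named come from the lists, at most 4 per list by smallest p, and some of these are not reported here. Of 137 list genes 133 were found, 2 by an older symbol.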

Additional observations from a re-analysis of the deposited data

How the results depend on the processing

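Without the block, the counts of genes and contractile genes called stayed at 0 at day 4 under every alternative but the block itself (10 genes and 1 contractile gene for OA against CON, 30 and 2 for OA against PA). At day 7 they stayed at 0 except without a filter, which called 2 genes each for PA, OA and MIX against CON. With cow as a block, OA against CON at day 4 called 33 genes with DESeq2, 52 without a filter and 0 with limma, and 0 to 74 when a cow or library was left out. The contractile genes called there numbered 5 with DESeq2, 2 with DESeq2 size factors, 3 without a filter, 0 with limma, 2 with only the compared groups, and 0 to 5 with a cow or library left out. OA against PA called 59, 117 and 3 genes with DESeq2, no filter and limma, and 0 to 199 with one left out. Its contractile genes numbered 1 with at least 50 counts (XIRP1, without ACTG2), 0 with limma and 0 to 4 with one left out. The 0 of the other day 4 comparisons with the block became 14 genes without a filter, 26 with only the compared groups and 0 to 20 with one left out for PA against CON. For MIX against CON these were 14, 7 and 0 to 13, and 3 with DESeq2. For MIX against PA they were 10 without a filter and 0 to 25. For MIX against OA they were 7 without a filter, 2 with limma, 29 with only the compared groups and 0 to 8. With only the compared groups 1 contractile gene was called for PA against CON (ACTA2, higher) and 1 for MIX against OA (XIRP1, lower). At day 7 with the block, no filter gave 2 genes each for PA, OA and MIX against CON, and only the compared groups 1 for PA against CON. Recovered reads gave 8 for OA against PA and 2 for MIX against OA, and leaving one out 0 to 2 and 0 to 6. For the change between days, leaving one out gave 0 to 1 for PA against CON and 0 to 2 for OA against CON. The cause of these shifts was not tested.

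Without the block, leaving out 1 library unbalances the cows, and log2 differences then ranged from -2.58 to 3.73 for ACTG2 and -0.36 to 1.18 for ACTA2 in OA against CON, and from -2.65 to 3.48 for ACTG2 and -0.30 to 1.24 for XIRP1 in OA against PA. With the block no difference with an unadjusted p below 0.05 changed sign in any alternative run. Depth limits what can be said of PDLIM3 in all libraries, and of DES and MYOCD in those with few reads, such as cow 4 for DES.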
